A study of Gallus gallus with 18 samples.

Results

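Solute carriers are membrane proteins that move small molecules and ions across the plasma membrane or the membranes of organelles. They are numbered by family, so that SLC2 holds the facilitative hexose transporters, SLC25 the carriers of the inner mitochondrial membrane, SLC30 and SLC39 the zinc transporters, SLC38 the sodium-coupled neutral amino acid transporters, and SLCO the organic anion transporters. An embryo at gastrulation uses them to take up glucose, amino acids, choline and metals from yolk and albumen, to pass metabolites between cytosol and mitochondria, and to carry nucleotide sugars into the Golgi for glycosylation. A part of them lies on the avian Z chromosome, which males carry as a pair and females as a single copy beside a W.

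Solute carrier members were taken as the probesets whose annotated symbol is SLC followed by a number, a letter and a number, or begins with SLCO, with SLC2A1 left out. Of the 38535 probesets on the array 674 met this rule, and they read 287 genes of 48 families. In the current chicken assembly GRCg7b, 24 of these probesets (15 genes) lay on Z and 641 (267 genes) on autosomes, while 9 probesets of 5 genes were not placed. Another 5 probesets that read a solute carrier together with other transcripts were not used.

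RNA came from 9 male and 9 female White Leghorn chicken embryos at day 1 of incubation, Hamburger and Hamilton Stage 4 (HH4), when the primitive streak is fully extended. A 400 µm square at the 70 to 90% level of the streak was cut from each embryo after 3 h of EC culture, in which the embryo grows outside the egg on a ring of filter paper, and each embryo gave 1 Affymetrix array. Some embryos had been electroporated, and the labels do not name them, so any part of this treatment in the values was not tested here. For its sexually dimorphic genes the study reports that electroporation made no statistical difference within a sex, and it pooled the embryos. Sex had been assigned from the W-linked gene HINTW (PKCIW), whose main probeset read 5.08 to 75.1 in males and 25606 to 32838 in females.

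Values are MAS5 signals, an intensity with no further unit. Because each probeset binds its target with its own strength, signals were compared between embryos for 1 probeset and never read as RNA amounts of 1 gene against another. Where a gene has several probesets, brighter and dimmer refer to their mean signals over all embryos. A probeset was called expressed when its signal was 129 or more in at least 9 of the 18 embryos, and 14540 probesets of the array passed. Between 13804 and 15263 probesets reached this level in each embryo. Of the 10 primitive streak and mesoderm markers 8 were expressed, among them TBXT, WNT3A, MSGN1 and SNAI2 in all 18 embryos, while NODAL reached the level in none and MIXL1 in 7. Their summed signal was 58609 to 80975 in males and 43238 to 73155 in females. Epiblast markers were expressed for 3 of 4 genes (sums of 3935 to 7089 in males and 3428 to 6945 in females) and endoderm and hypoblast markers for 4 of 5 genes (17620.2 to 39379 in males and 9749.7 to 32393 in females). Of the yolk sac markers only APOA1 was expressed, with AFP and APOB in no embryo, and the haemoglobin genes HBA1 and HBZ also reached the level in none, while LMO2, TAL1 and KDR of the blood and endothelium list were expressed. Female 9 and males 5, 6 and 8 had the lowest scores on the first principal component of all expressed probesets, which held 17.3% of the variance. Female 9 was at -42.4 and male 6 at -22.6, with male 9 next at -12.2 and female 5 at the other end at 25.7. These are the 4 embryos said below to stand apart, though the scores set no sharp border around them.

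Which transporter families were expressed was asked first. At least 1 probeset was over the level for 144 of the 287 solute carrier genes (50.2%), against 60.3% of the 13009 annotated genes on the array, and 214 of the 674 probesets passed (31.8%), against 42.9% of all probesets that read 1 gene. Mitochondrial carriers and nucleotide sugar transporters had the highest shares, at 27 of 33 SLC25 genes (81.8%) and 19 of 24 SLC35 genes (79.2%). Classes were set by family number alone, so the nucleotide sugar class is the whole SLC35 family and includes orphan members such as SLC35E3. Organic ion transporters and the sodium-coupled glucose and anion transporters of SLC5 had the lowest, at 4 of 23 genes (17.4%) and 0 of 9. These counts describe how many genes gave a readable signal and were not tested against each other. They depend on the level: under the alternatives tried, mitochondrial carriers passed for 20 to 27 genes and nucleotide sugar transporters for 17 to 21, but organic ion transporters for 3 to 10 and SLC5 for 0 to 3.

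**Figure D1:**
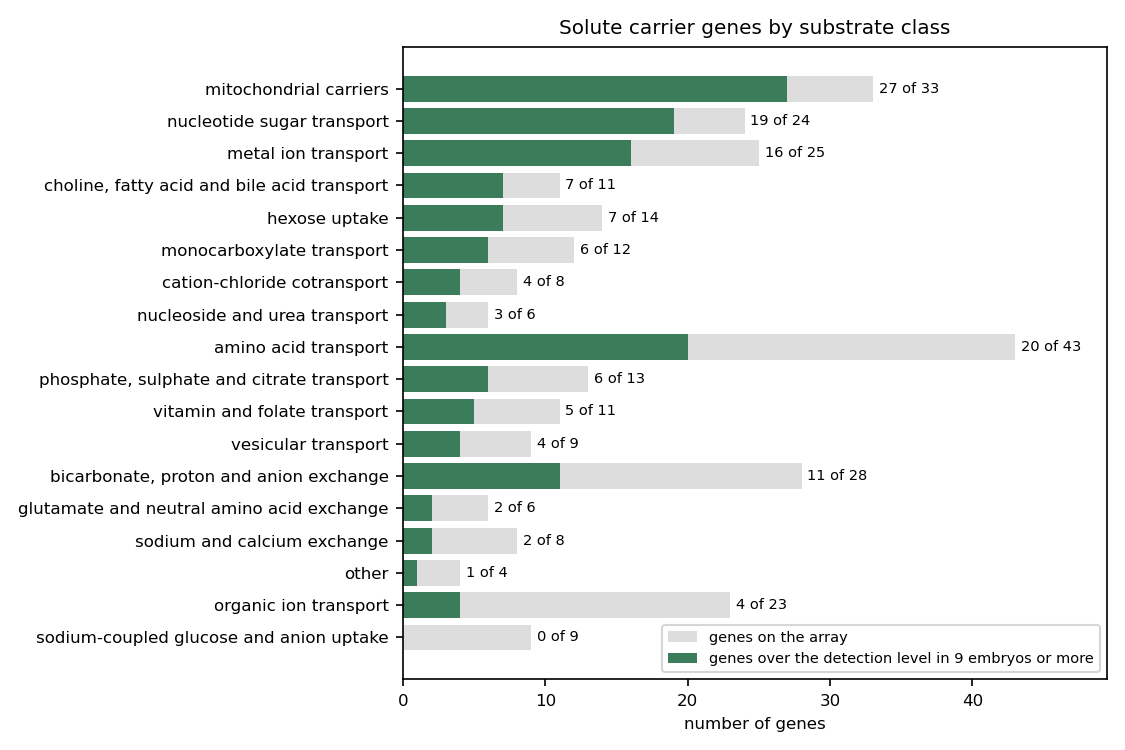
Number of solute carrier genes on the array (grey bars) and number over the detection level in 9 embryos or more (green bars), for 18 substrate classes ordered by the share expressed. Mitochondrial carriers (27 of 33) and nucleotide sugar transporters (19 of 24) head the list, and no gene of the sodium-coupled glucose and anion class passed at this level.

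Without the 4 embryos that stood apart, 148 genes passed in 7 or more of 14. Members over the level numbered 206 to 244 probesets in single males and 199 to 235 in single females, with medians of 226 and 221, so the number of solute carriers detected overlapped between the sexes. Of the expressed probesets 154, belonging to 107 genes, were over the level in every one of the 18 embryos. At the other end 342 probesets reached it in none, and for 85 genes this held for every probeset. A probeset under the level does not show that a transporter was absent, since 93 expressed genes had further probesets that stayed under it.

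Among the SLC25 carriers the 6 genes under the level were SLC25A1, SLC25A10, SLC25A30, SLC25A42, SLC25A47 and SLC25A48. The 5 SLC35 genes under it were SLC35A5, SLC35B1, SLC35D3, SLC35F4 and SLC35G1. Metal ion transporters passed for 16 of 25 genes, with 6 of 9 SLC30 zinc exporters, 6 of 9 SLC39 zinc importers and all 3 SLC41 magnesium transporters. Neither the phagosomal metal transporter gene SLC11A1 nor the iron exporter gene SLC40A1 passed. SLC40A1 was judged by 1 probeset, since what is read together with ORMDL1 was not used. Mitochondrial carriers, nucleotide sugar transporters, metal ion transporters and the choline, fatty acid and bile acid class were the 4 classes above the 60.3% of all annotated genes.

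Hexose transporters of SLC2 passed for 7 of 14 genes, monocarboxylate transporters of SLC16 for 6 of 12, and amino acid transporters for 20 of 43 (46.5%). Within the amino acid class 5 of 9 SLC38 genes and 6 of 12 SLC7 genes passed, but only 3 of 13 SLC6 genes did, and these were SLC6A6, SLC6A9 and SLC6A15. SLC6A9, a glycine transporter, reached the level in 13 embryos, while the serotonin and noradrenaline transporter genes SLC6A4 and SLC6A2 were under it. Of the vesicular carriers, the acetylcholine transporter gene SLC18A3 reached it in 12 embryos, and the GABA transporter gene SLC32A1 was under it.

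Glutamate and neutral amino acid exchangers of SLC1 passed for 2 of 6 genes and cation-chloride cotransporters of SLC12 for 4 of 8. Choline, fatty acid and bile acid transporters passed for 7 of 11 (63.6%), bicarbonate, proton and anion exchangers for 11 of 28 (39.3%), vitamin and folate transporters for 5 of 11, and vesicular transporters for 4 of 9. In all, 40 of the 48 families had an expressed gene. The 8 families with none were SLC5, SLC8, SLC11, SLC13, SLC14, SLC28, SLC32 and SLC40, which together held 23 genes. They include the sodium-calcium exchangers (SLC8, 0 of 3), the sulphate and dicarboxylate cotransporters (SLC13, 0 of 5) and the concentrative nucleoside transporters (SLC28, 0 of 2), while all 3 equilibrative nucleoside transporters (SLC29) passed.

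The threshold cut through a continuous range. SLC26A6, an anion exchanger, was just inside it with a 9th-highest signal of 129.1, followed by a probeset of SLC35F1 at 129.9 and by SLC29A4 at 131.4. Just outside it were a probeset of SLC9A7 at 128.9, the proline transporter gene SLC6A7 at 128.5 and the potassium-chloride cotransporter gene SLC12A5 at 127.7.

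The probeset with the highest signal belonged to SLC25A6, an ADP/ATP carrier of the inner mitochondrial membrane, with 31997, 36509 and 43921 as the lowest, median and highest signals in males, against 29192, 34611 and 37683 in females. SLC25A3, the mitochondrial phosphate carrier, averaged 22883 ± 2101 in males and 22400.4 ± 2019.8 in females (SD, n = 9 each). SLC38A1, a neutral amino acid transporter, averaged 14865 ± 1387 in males and 15011 ± 1160.0 in females (n = 9 each). None of these 3 passed the test between the sexes, with limma adjusted p of 0.862 or more.

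Among the SLC2 members, from which SLC2A1 was left out, the brightest probeset was that of SLC2A14, a facilitative glucose transporter of the GLUT3 kind. It read 12968 ± 2186 in males and 12638 ± 745 in females. Signals of different probesets do not order genes by RNA amount or by uptake. SLC25A13, the mitochondrial aspartate-glutamate carrier, read 12151 ± 531 in males and 11677 ± 1473 in females. SLC22A5, which takes up carnitine, read 9498 ± 2065 in males and 9743 ± 1803 in females, and SLC25A20, the carnitine-acylcarnitine carrier of mitochondria, read 6809 ± 391 in males and 6911 ± 663 in females. Both of these carnitine transporter probesets were over the level in all 18 embryos, and transport itself was not measured.

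SLC16A1, a lactate and pyruvate transporter, had 7093, 8385 and 11480.1 as lowest, median and highest in males, against 7042, 8251 and 9921 in females. SLC35E3, an orphan member of the nucleotide sugar family, read 9417 ± 1048 in males and 9138 ± 1362 in females. A further ADP/ATP carrier, SLC25A5, read 8218 ± 915 in males and 8089.9 ± 688 in females. The ranges of the sexes overlapped for each of these bright members.

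In the other classes the brightest expressed genes had mean signals over the 18 embryos that spanned a wide range. For vesicular transport the brightest was SLC18B1, a polyamine transporter of vesicles (6671). For bicarbonate transport it was the sodium bicarbonate cotransporter gene SLC4A7 (5661), and for metal transport SLC30A5 (4690.0). SLC19A1, the reduced folate carrier, had 2825, SLC1A4, a neutral amino acid exchanger, 2609, and SLC33A1, which carries acetyl-CoA into the endoplasmic reticulum, 2115. Lower means were those of SLC37A3, of the glucose-phosphate family, at 1015, of the equilibrative nucleoside transporter gene SLC29A1 at 501, of SLC12A2 at 397, of SLC45A4 at 250.2 and of SLC24A2 at 190.1. None of the autosomal genes among them passed the test between the sexes.

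Male against female signals were compared next, with 1 coefficient for sex in limma over all 14540 expressed probesets and Benjamini-Hochberg adjustment. Male embryos had higher signals for 6 solute carrier probesets of 4 genes, SLC44A1, SLC25A51, SLC30A5 and SLC12A2, all on Z, and no member was higher in females. Without the 4 embryos 5 members were male-higher. Over all probesets tested 2.48% were male-higher and 0.282% female-higher, and over the 502 Z-linked probesets tested 57% were male-higher, so 6 of 10 Z-linked members is close to the share for the chromosome. On autosomes 0.0633% of probesets were male-higher and 0.118% female-higher, against 0 of 204 autosomal members in either direction. At an unadjusted limma p under 0.05, 7 of 10 Z-linked members were male-higher, and of 204 autosomal members 3 were male-higher and 6 female-higher. The share of all probesets at this unadjusted p was not counted, so nothing particular to the members is read from these counts. In these dissected squares, fewer cells of a type and less RNA per cell cannot be told apart.

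**Figure D2:**
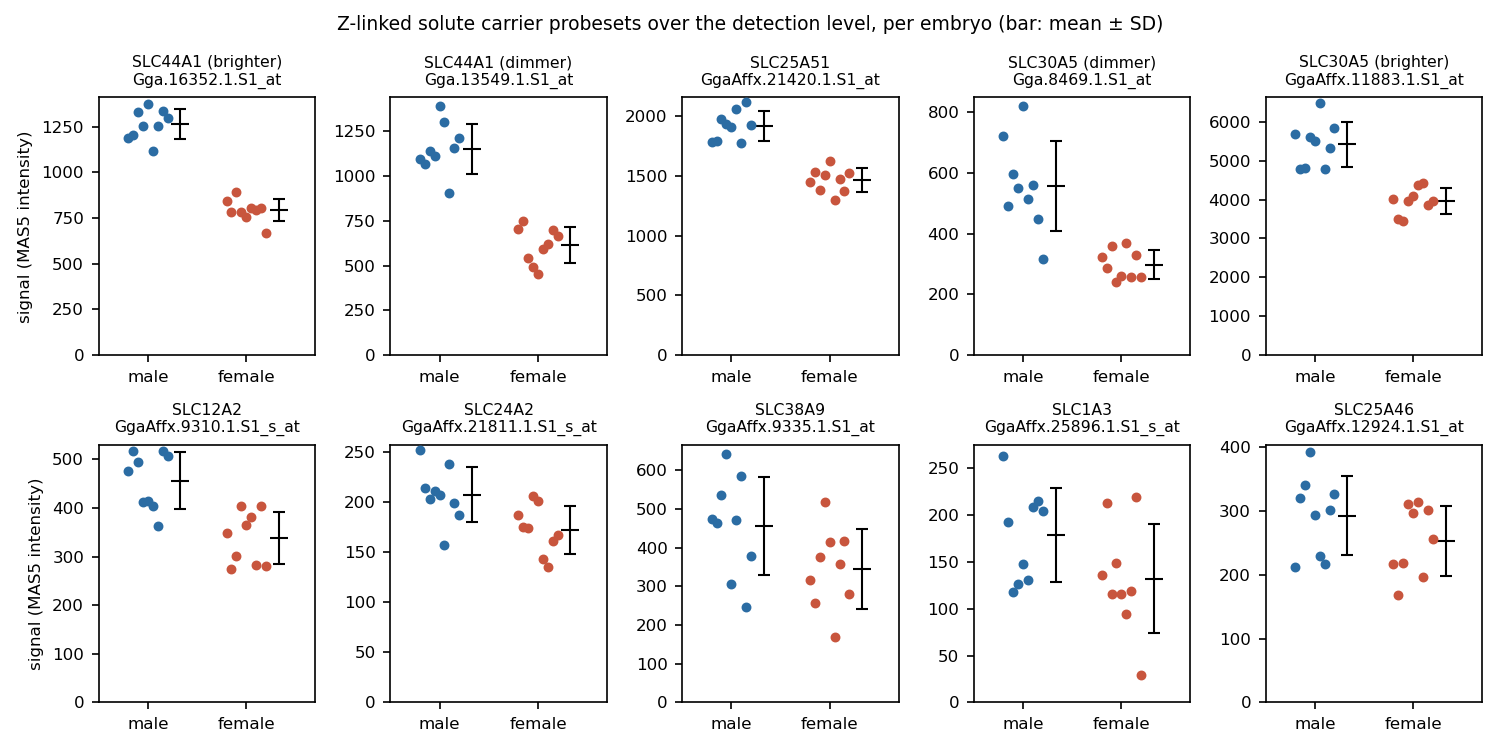
Signals of the 10 expressed Z-linked solute carrier probesets in each embryo, with males left (blue) and females right (red), and the mean ± SD of the 9 embryos of each sex as a black bar, on linear axes from 0. The 9 males lie above the 9 females in both SLC44A1 panels, in SLC25A51 and in the brighter SLC30A5 probeset, and the other panels overlap.

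SLC44A1, a choline transporter of the plasma membrane and mitochondria, had a pair of expressed probesets. The dimmer of them read 905, 1138 and 1391 as lowest, median and highest in males, against 453, 623 and 747 in females. The brighter read 1118, 1255 and 1374 in males, against 670.1, 791 and 891 in females. No female reached the lowest male in either probeset.

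The M:F ratio of mean signals was 1.88 for the dimmer SLC44A1 probeset, with a log2 difference of 0.92 ± 0.11 (SE, limma adjusted p = 9.51e-06). For the brighter it was 1.60, with a log2 difference of 0.67 ± 0.07 (SE, limma adjusted p = 1.58e-06). The exact permutation p over the 48620 splits of 18 embryos into 9 and 9 was 4.11e-05 for each, the smallest these splits can give. One more probeset of the gene reached the level in 8 embryos and was not tested, with medians of 117 in males and 114 in females.

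SLC30A5, which loads zinc into the secretory pathway, also had a pair. Its brighter probeset read 4775, 5508 and 6476 in males, against 3442, 3974 and 4430 in females (means 5419.7 ± 570.1 in males and 3960.4 ± 336 in females, SD, n = 9 each). All 9 males were above all 9 females, and the M:F ratio was 1.37 (log2 difference 0.45 ± 0.08 SE, limma adjusted p = 8.39e-04). The dimmer read 318, 551 and 821 in males, against 241, 287 and 370 in females, and here 8 of 9 males were above the highest female. Its M:F ratio was 1.87 (log2 difference 0.87 ± 0.15 SE, limma adjusted p = 8.10e-04).

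SLC25A51, which carries NAD into mitochondria, gave the tightest reading of the Z-linked members. It read 1774, 1923 and 2113 in males, against 1293, 1475 and 1618 in females, with no overlap. The M:F ratio was 1.31 (1916 ± 122 in males and 1461 ± 99.6 in females, SD, n = 9 each; log2 difference 0.39 ± 0.06 SE, limma adjusted p = 5.07e-04). Thus the smallest of the 6 differences came with the smallest spread between embryos.

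SLC12A2, the sodium-potassium-chloride cotransporter, read 364, 475 and 518 in males, against 274, 349 and 405 in females. The sexes overlapped, with 8 of 9 males above the highest female, at an M:F ratio of 1.35 (log2 difference 0.44 ± 0.10 SE, limma adjusted p = 0.0194). This call was lost without female 9 and males 5, 6 and 8 (limma adjusted p = 0.108, log2 difference 0.42), with no filter on low signals (0.136) and with the replicate number as a block (0.0847).

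In total every male was above every female for 4 of the 10 Z-linked members, which belong to 3 genes. Over all probesets tested this held for 1.16%, and over the Z-linked ones for 28.9%.

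Whether Z-linked members differed from each other in their sex difference was tested for 3 pairs, chosen with the values already known. The dimmer SLC44A1 probeset had a larger log2 difference than SLC25A51 by 0.53 (exact permutation p = 4.11e-05, adjusted over the 3 tests 1.23e-04, n = 9 each). These were the largest and the smallest of the 6 called differences. The p does not allow for that choice, so no conclusion is drawn from it. Within SLC30A5 the dimmer probeset had the larger difference, by 0.42 (exact p = 0.0302, adjusted 0.0452), and within SLC44A1 the difference between probesets was 0.24 (exact p = 0.0463, adjusted 0.0463). Without female 9 and males 5, 6 and 8 the last pair of results did not pass, at 0.40 (exact p = 0.0733) for SLC30A5 and 0.22 (exact p = 0.0889) for SLC44A1. Probesets of 1 gene read the same embryos, so they are not independent measurements of a gene's ratio.

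The other 4 expressed Z-linked genes did not pass the test. SLC24A2, a potassium-dependent sodium-calcium exchanger, read 158, 207 and 252 in males, against 136, 174 and 206 in females (log2 difference 0.27 ± 0.10 SE, limma adjusted p = 0.301). SLC38A9, a lysosomal amino acid transporter that senses arginine, read 247, 471 and 643 in males, against 168, 358 and 517 in females (0.41 ± 0.21 SE, limma adjusted p = 0.624). Both genes had higher medians in males, and their ranges overlapped.

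SLC1A3, a glutamate transporter best known from glia, was over the level in 7 males and 4 females, with 118, 193 and 264 in males, against 29.6, 119 and 219 in females (0.56 ± 0.29 SE, limma adjusted p = 0.656). SLC25A46, a mitochondrial outer membrane member of the carrier family, read 212, 301 and 393 in males, against 169, 256 and 315 in females (0.21 ± 0.15 SE, limma adjusted p = 0.806). The difference of SLC38A9 was as large as that of SLC25A51 (0.39), but its SE was 0.21, against 0.06. All 10 expressed Z-linked members had a positive log2 difference, and the median over all 502 Z-linked probesets tested was 0.59. How many of those 502 were positive was not counted, so the sign is not read as particular to solute carriers.

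Of the 15 Z-linked member genes 7 had no expressed probeset, where what is read from SLCO4C1 together with ST8SIA4 was not used. SLC1A1, a glutamate transporter, had 3 probesets with no embryo over the level, and SLCO4C1, an organic anion transporter, had 2. The melanosome transporter gene SLC45A2, which is known for plumage colour in chicken, and SLC46A2 also reached it in no embryo, with highest signals of 102 and 77.7. The urea transporter gene SLC14A2 passed it in 1 embryo, the nucleoside transporter gene SLC28A3 in 1 and the fatty acid transporter gene SLC27A6 in 3. Further probesets of SLC25A46 and SLC1A3 reached it in none, and no ratio between the sexes was read from any of these.

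**Figure D3:**
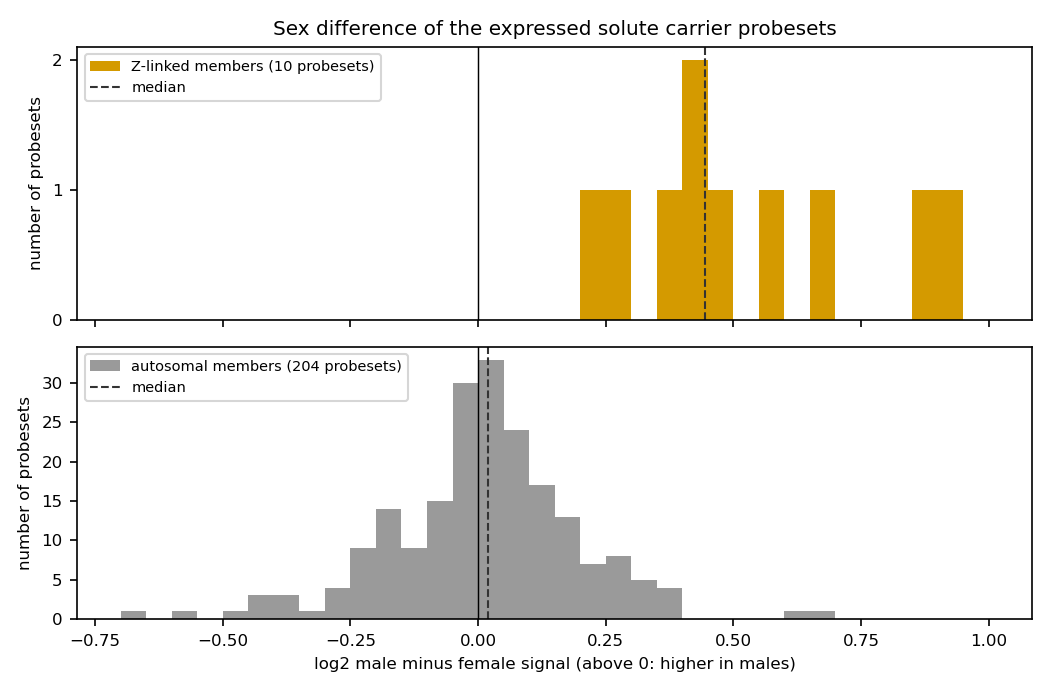
Log2 male minus female signal of the expressed solute carrier probesets, with the 10 Z-linked ones in the upper panel and the 204 autosomal ones in the lower, in bins of 0.05, with the median of each as a dashed line. All Z-linked members lie to the right of 0, with a median of 0.44, and the autosomal members lie on both sides with a median of 0.02.

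The median log2 difference of the 10 Z-linked members was 0.44, against 0.59 for all Z-linked probesets tested, and ran from 0.21 to 0.92. The 204 autosomal members had a median of 0.02 (range -0.66 to 0.68, SD 0.19), against -0.02 (SD 0.19) for all autosomal probesets, and 113 of them were positive and 91 negative. As ratios of mean signals the medians were 1.35 for Z-linked and 1.02 for autosomal members. Of the autosomal members 171 (83.8%) lay within 0.25 of 0 on the log2 scale, as did 1 of the Z-linked members.

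The ends of the autosomal range, chosen by value, were dim probesets. SLC3A1, the partner chain of a basic amino acid transporter, read 79.9, 120.2 and 169 in males, against 94.1, 213 and 363 in females (log2 difference -0.66 ± 0.24 SE, limma adjusted p = 0.279). SLC15A1, a peptide transporter, read 93.6, 148 and 208 in males, against 8.83, 112 and 169 in females (0.68 ± 0.42 SE, limma adjusted p = 0.751). The smallest adjusted p of any autosomal member was 0.271, for a probeset of SLC9A7, a sodium-proton exchanger of the Golgi (the brighter of its pair), which averaged 335 ± 44.8 in males and 452 ± 133 in females (n = 9 each).

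Variation between embryos of the same sex was measured as the SD of log2 signal with the sex means removed. Its median was 0.31 over the 214 expressed members, against 0.30 over all probesets tested, and 34 of the 214 members were over 0.5, as were 2324 of all 14540. Each member was then ranked among 500 probesets of like mean signal, where the median member was at percentile 46.7, with 8 over the 95th (3.74%) and 12 under the 5th. As a group the solute carriers varied about as much as other probesets.

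Dim probesets vary more, so genes were named only where the mean signal was at least 516, which is 4 times the level. This held for 95 probesets of 72 genes, with a median SD of 0.22, against 0.23 for all probesets over it. The least variable were SLC25A51 (0.10), the brighter SLC44A1 probeset (0.10), SLC25A20 (0.11), SLC35C2, a GDP-fucose transporter candidate of the early secretory pathway (0.12), and SLC38A1 (0.12). The dimmer SLC44A1 probeset had an SD of 0.22, and the dimmer expressed SLC25A20 probeset 0.25. The other expressed SLC38A1 probesets had SDs of 0.15, 0.23, 0.27 and 0.39. For SLC44A1, SLC25A20 and SLC38A1 the low SD thus describes the listed probeset and not every probeset of the gene.

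**Figure D4:**
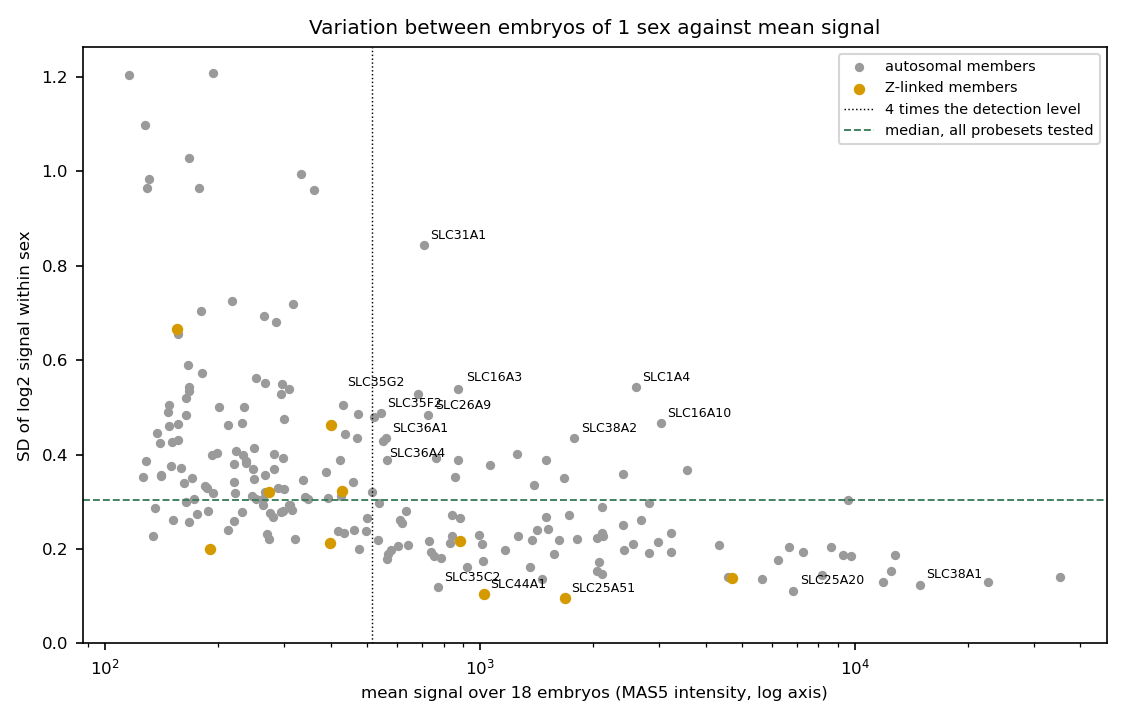
SD of log2 signal between embryos within sex against mean signal over 18 embryos (log axis) for the 214 expressed members, Z-linked in gold and autosomal in grey, with 4 times the detection level as a dotted line and the median SD of all probesets tested as a dashed line. SLC31A1 (0.84) lies highest among the brighter members, and SLC25A51 (0.10) lies lowest.

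SLC31A1, the high-affinity copper importer, had the largest spread, with an SD of 0.84 in 1 of its 5 expressed probesets. Males 5 and 6 and females 1, 3 and 6 read 207 to 312, and the other 13 embryos, 7 males and 6 females, read 489 to 1232. Its lowest, median and highest were 207, 819 and 983 in males, against 271, 748 and 1232 in females. The split ran across both sexes.

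The other probesets of SLC31A1 followed it in part. With the second-brightest, which had an SD of 0.39, its r was 0.67 and rho 0.54 (permutation p = 0.00262 and 0.0207, adjusted 0.0313 and 0.0975), and 0.65 without the 2 farthest embryos. With the brightest probeset r was -0.59 and rho -0.55 (permutation p = 0.0101 and 0.0199, adjusted 0.0528 and 0.0975), and -0.45 without the 2 farthest. With the dimmest, r was 0.58 (permutation p = 0.0128, adjusted 0.0606), and 0.38 without the 2 farthest. With the next dimmest, r was 0.001 (permutation p = 0.9965). The brightest read 2852, 3575 and 5064 in males, against 1918, 3096 and 4989 in females, with an SD of 0.37. Female 2, which was highest in the variable probeset (1232), was lowest in the brightest (1918). In that embryo the readings of 1 gene thus ran in opposite directions, and which of them follows the SLC31A1 transcript was not tested.

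SLC1A4, the neutral amino acid exchanger, had an SD of 0.54 in its brighter probeset, and it rested on a pair of embryos. Male 8 read 5899.5 and female 9 read 5344, and the other 16 embryos read 1539 to 3262. Without female 9 and males 5, 6 and 8 the SD was 0.30. The dimmer probeset read 2387 in male 8, which was its highest, and 1386 in female 9, against 825 to 2154 in the other 16 embryos.

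These embryos were also those with the most endoderm and hypoblast marker signal. The sum over 5 marker genes was 39379 in male 8 and 32393 in female 9, and 9749.7 to 23298 in the other 16. CER1, a secreted Nodal and Wnt inhibitor of the hypoblast, read 7707 in male 8 and 2481 in female 9, and at most 690.1 elsewhere. The same embryos had the highest epiblast and early neural sums (7089 in male 8 and 6945 in female 9, against 3428 to 6836 in the other 16). They had the lowest streak and mesoderm sums (58609 in male 8 and 43238 in female 9, against 61225 to 80975) and the lowest blood and endothelium sums (457 in male 8 and 438 in female 9, against 509 to 2161). Yolk sac sums were 1779.5 in male 8 and 1710.0 in female 9, within the 1084 to 3219.8 of the others. Male 8 and female 9 were the highest pair of the 18 for 8 expressed members (3.74%, against 2.48% of all probesets tested) and the lowest pair for 2 (0.935%, against 2.44%). Besides SLC1A4, the first set held the lactate exporter gene SLC16A3, SLC34A2, SLC43A2, SLC22A15L and both expressed probesets of SLC39A13. Of the zinc exporter gene SLC30A1 it held only the dimmer expressed probeset, and in the brighter one male 2 was highest, at 1241. Apart from SLC1A4 and SLC16A3, the genes of this set were chosen after their values were seen. The part of the cell makeup of these squares in the readings was not tested.

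SLC16A10, an aromatic amino acid transporter, formed an upper set in its brightest probeset (SD 0.47). Male 6 and females 1, 2, 7 and 9 read 4182 to 5578, and the other 13 embryos read 1884 to 2874. Its lowest, median and highest were 1884, 2269 and 5269 in males, against 2110.0, 2874 and 5578 in females (log2 difference -0.41 ± 0.21 SE, limma adjusted p = 0.629). The next probesets of the gene by signal had SDs of 0.15 and 0.21, with highest signals of 2489.7 and 1086. Female 9 was highest in the brightest probeset and in the next. This pair had r = 0.49 and rho = 0.55 (permutation p = 0.0374 and 0.0191, adjusted 0.119 and 0.0975). Without the 2 farthest embryos r was 0.24. The brightest and the third had r = 0.25 and rho = 0.31 (permutation p = 0.317 and 0.208).

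**Figure D5:**
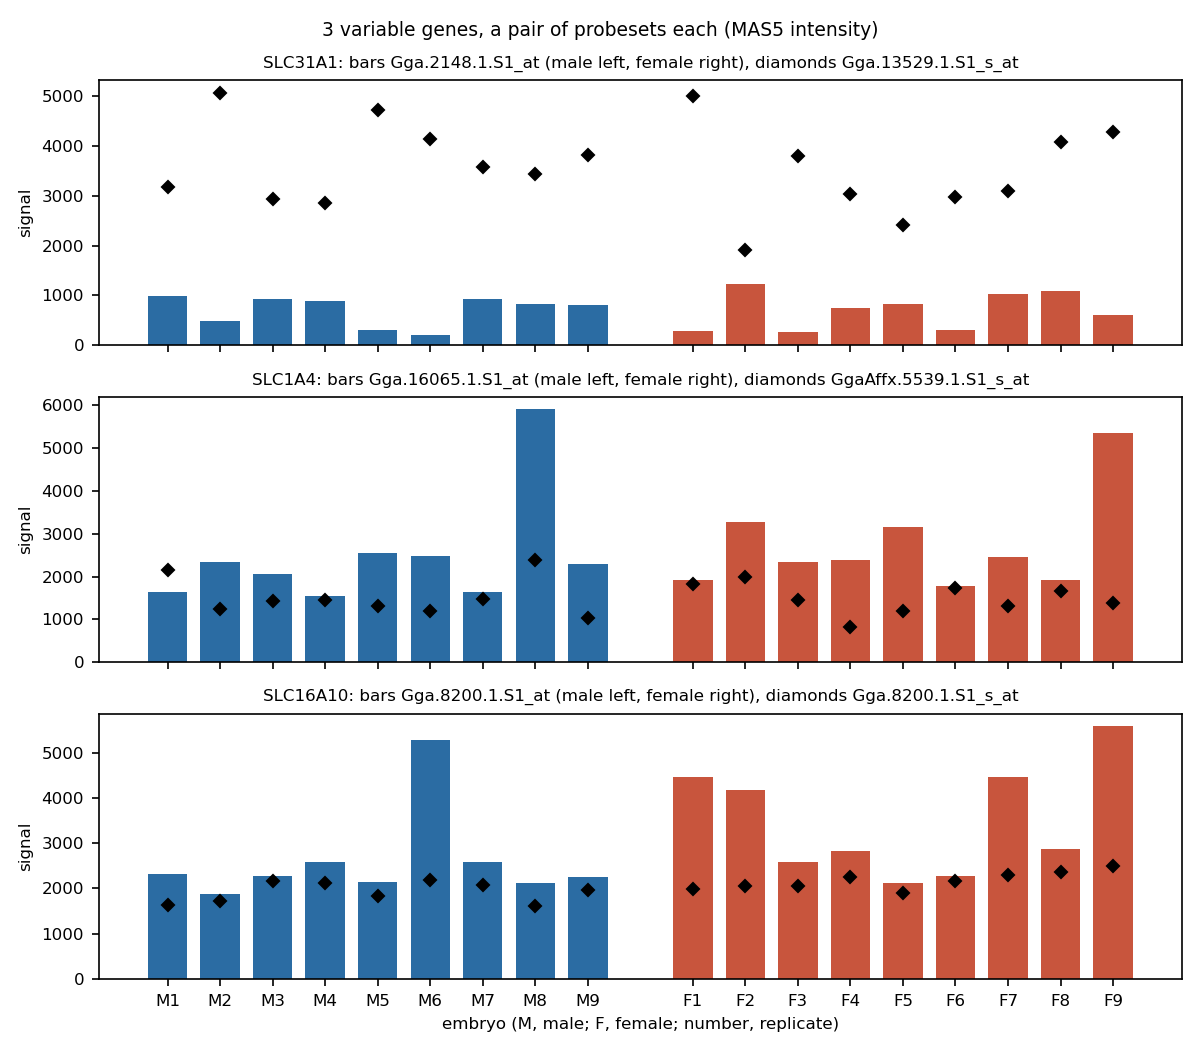
Signals in each embryo for SLC31A1, SLC1A4 and SLC16A10, males (M1 to M9) left and females (F1 to F9) right, with the variable probeset as bars and a second probeset of the same gene as diamonds, both as MAS5 intensity on linear axes from 0. SLC1A4 stands at 5899.5 in male 8 and 5344 in female 9 and SLC16A10 at 4182 to 5578 in 5 embryos, while the diamonds do not rise to the same degree there.

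Of the remaining most variable members, SLC16A3 read 386, 860.4 and 1573 in males, against 533, 875 and 1466 in females (SD 0.54), with male 8 and female 9 again highest. SLC38A2, a neutral amino acid transporter induced when amino acids are scarce, read 987, 1495 and 2746 in males, against 1200.0, 2091 and 2928 in females (SD 0.43). SLC26A9, a chloride transporter, ranged over 420.3 to 985 in males and 363 to 1159 in females (SD 0.48). No sex difference passed the test in any of the 10 most variable members.

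SLC36A1 and SLC36A4, proton-coupled and related amino acid transporters, each had an SD of 0.43. SLC36A1 ranged over 333 to 686 in males and 312 to 1005 in females, and SLC36A4 over 326 to 849 in males and 353 to 846 in females. Dimmer expressed probesets of SLC36A1 had SDs of 0.54 and 0.51. Their r with the named probeset was 0.17 and 0.18 (permutation p = 0.482 and 0.479). SLC35F2 ranged over 224 to 645 in males and 347 to 961 in females (SD 0.49, log2 difference -0.49 ± 0.22 SE, limma adjusted p = 0.499). A second SLC35F2 probeset had an SD of 0.19, so for this gene too the wide spread was seen in 1 of its probesets. The SLC35F2 pair had r = -0.50 and rho = -0.52 (permutation p = 0.0368 and 0.0298, adjusted 0.119 and 0.123).

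How far probesets of 1 gene moved together across the 18 embryos was asked of the 99 pairs of expressed probesets from 50 member genes, with the sex means removed. The median Pearson correlation was 0.23, against 0.25 over 5208 such pairs of all genes, and 22 pairs were below 0. A permutation p of r adjusted over the 99 pairs was under 0.05 for 18 pairs of 14 genes. How many of the 5208 pairs would pass was not counted, so nothing particular to the members is read from this. Some of the 18 did not pass by rho, such as SLC39A13, with r = 0.63 and rho = 0.38 (permutation p adjusted 0.0463 and 0.315). Its r was 0.17 without the 2 farthest embryos. Among the 18 pairs only that of SLC30A6 ran in opposite directions, with r = -0.60. By rho it did not pass, but an SLC23A2 pair that ran in opposite directions did. That pair had r = -0.55 and rho = -0.66 (permutation p = 0.0187 and 0.00360, adjusted 0.0771 and 0.0274). Judged by the median r, most pairs shared little of their variation between embryos, as was true of pairs over the whole array.

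SLC35G2 had the closest pair, with r = 0.91 and Spearman's rho = 0.89 (permutation p = 1.0e-05 each, the smallest that 100000 draws can give, adjusted p = 9.90e-04 and 4.95e-04), and r = 0.88 without the 2 embryos farthest from the median. Both probesets carry the same stem in their names, and whether they share probes was not tested. The brighter read 380, 753 and 1072 in males, against 356, 663 and 1096 in females. SLC35G2 was thus both among the most variable members (SD 0.53) and read alike by both of these probesets.

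SLC7A5, the large neutral amino acid transporter, had r = 0.82 and rho = 0.84 (permutation p = 3.00e-05 and 1.0e-05, adjusted 1.48e-03 and 4.95e-04), and r = 0.81 without the 2 farthest embryos. It averaged 2131 ± 317 in males and 1966 ± 345 in females in the brighter probeset. SLC35E4 had r = 0.77 and rho = 0.80 (permutation p = 3.00e-04 and 1.20e-04, adjusted 7.42e-03 and 3.96e-03), with 0.80 without the 2 farthest. SLC35F1 also had r = 0.77, with rho = 0.74 (permutation p = 1.20e-04 and 9.30e-04, adjusted 3.96e-03 and 0.0184), and r = 0.73 without the 2 farthest. The dimmest expressed SLC35F1 probeset, just inside the threshold, did not follow this pair. There r was 0.17 with the brighter and -0.07 with the other (permutation p = 0.50 and 0.77).

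SLC9A7 had r = 0.70 and rho = 0.67 (permutation p = 1.78e-03 and 3.49e-03, adjusted 0.0313 and 0.0274), with 0.70 without the 2 farthest. Both of its probesets had higher means in females, at 355 ± 47.1 in males and 421 ± 145 in females for the dimmer, and neither passed the test. The lowest Pearson correlation was that of SLC30A6, a zinc transporter that partners SLC30A5, at r = -0.60 and rho = -0.56 (permutation p = 8.97e-03 and 0.0168, adjusted 0.0493 and 0.0944), with -0.51 without the 2 farthest. Probesets that ran in opposite directions in the same embryos do not give a single level for their gene.

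Among the 10 most variable genes no pair of different genes moved together past the test, over 45 pairs with a permutation p adjusted over them. By the p of r, SLC1A4 came nearest with a pair of other amino acid carriers. With SLC36A4 it had r = 0.59 and rho = 0.56 (permutation p = 0.00939 and 0.0164, adjusted 0.211 and 0.369), r was 0.42 without the 2 farthest embryos, and it was 0.27 without female 9 and males 5, 6 and 8. With SLC38A2 it had r = 0.59 and rho = 0.50 (permutation p = 0.00927 and 0.0356, adjusted 0.211 and 0.401). Without the 2 farthest embryos r was 0.38, and it was 0.39 without female 9 and males 5, 6 and 8. By the p of rho, SLC31A1 with SLC35F2 came nearest, at r = 0.50 and rho = 0.57 (permutation p = 0.0358 and 0.0146, adjusted 0.383 and 0.369). For that pair r was 0.60 without the 2 farthest embryos and 0.70 without female 9 and males 5, 6 and 8.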

How the data were processed

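The authors deposited MAS5 signals of 38535 probesets, linear intensity values scaled on each array, 1 array for each embryo. MAS5 and affy are named in the submitters' processing notes, with no version. Tests ran on plain log2 signals, and 96 control probesets were left out. Present calls were not used here, and the level of 129 was set so that about as many probesets passed in 9 embryos as the study kept. The same filter was used for Z and autosomes. Symbols and chromosomes came from the probe annotation and RefSeq's GRCg7b: 27178 probesets read 1 gene, 177 several and 11180 none. No coordinates are given, since the build of the array's design was not stated in the sources used here.

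Sexes were compared with limma 3.58.1 in R 4.3.3 over all expressed probesets, 2-sided, at an adjusted p of 0.05. Python 3.11.15 with pandas 2.3.3 gave exact permutation tests over all splits of the embryos and correlations with 100000 permutations. The number of arrays limits the precision. The limma step was tested on simulated data.

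The members, families' classes and marker lists were chosen with earlier results of these data known. Genes named are all Z-linked and all called members, the 10 brightest, the 10 most and 5 least variable, the brightest of each class, the 5 with the most correlated probesets, and those nearest to the threshold. Alternatives were other filters and detection levels, a constant of 16 added before log2, quantile normalization, the study's Z list, the brightest probeset per gene, weighted arrays, a block for the replicate number, and leaving out each embryo or the 4 that stood apart. The replicate numbers did not pair the embryos. Sequences of probesets and genes were not used here.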

Additional observations from a re-analysis of the deposited data

Results flagged for a closer look

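Of 106 groups of 9 embryos, from 53 named probesets, 12 had an embryo that lay far from the others of its sex. Chance alone gives about 1 in 20 where groups are independent and not chosen by their values. Some of these probesets, SLC1A4 and SLC16A10 among them, were named for their wide spread, which an outlying embryo widens. All groups of a sex also hold the same embryos, so no excess over chance is read from the 12. Male 8 was highest in SLC1A4 (5899.5, with the next male at 2541) and in SLC33A1 (2646, next 2156). It was lowest in SLC18B1 (4710.2, next 6049), in SLC19A1 (2108, next 2686) and in SLC9A7 (252, next 319). Male 6 was highest in SLC16A10 (5269, next 2589), male 3 lowest in SLC4A7 (4404, next 5300) and male 5 highest in SLC12A5 (237, next 143). Among females, female 4 was highest in SLC19A1 (3719.8, next 2937) and female 6 lowest in SLC33A1 (1595, next 1959). Female 9 was lowest in SLC1A3 (29.6, next 94.0) and in SLC6A7 (25.2, next 67.0), both near or under the detection level.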

How the results depend on the processing

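The total of expressed genes, the count of called members and the medians by chromosome stayed within 1.5 times or within their spread under every alternative run. Expressed genes numbered 103 to 197 in total under the other detection levels, filters and quantile normalization. By class the counts moved more, by over 1.5 times in 13 of 18 classes: organic ion transport gave 3 to 10 genes, sodium and calcium exchange 0 to 7, amino acid transport 13 to 30, bicarbonate, proton and anion exchange 6 to 13, hexose uptake 4 to 10 and SLC5 0 to 3. Leaving out each embryo in turn gave 6 to 7 male-higher and 0 female-higher members, a Z-linked median of 0.40 to 0.48 and an autosomal median of 0.01 to 0.03. All 10 Z-linked members stayed male-higher in sign in all of these, though SLC1A3 had passed the filter with more males than females. The SLC12A2 call was lost with no filter (limma adjusted p = 0.136), without the 4 embryos that stood apart (0.108) and with a replicate block (0.0847), and the cause was not tested. With that block 5 members were called in place of 6, and 323 probesets in place of 361 male-higher over the array. Deviations of same-numbered males and females correlated from -0.24 to 0.21, with 4 of 9 pairs over 0.1, and 2 of 9 males matched best with their own number, so the samples share only a number. The dimmer probeset of SLC25A17, a peroxisomal carrier on an autosome, passed only without female 6 (log2 difference 0.41, limma adjusted p = 0.0482). Over all 18 embryos its log2 difference was 0.34, and that of the brighter SLC25A17 probeset was 0.07. SLC38A9 had an exact p of 0.0183 without the 4 embryos (log2 difference 0.59). For expressed genes, exact tests and probeset pairs, leaving out these embryos was added after the data were seen. Their removal also gave SDs of 0.35 for SLC16A10, 0.34 for SLC36A4 and 0.07 for SLC44A1. The median SE of the log2 difference between the sexes was 0.14 over all expressed members, dim and bright together. The median SD within sex was 0.31 over all of them and 0.22 over those of 516 or more, so dim members were read with a wider spread.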
